A study of Homo sapiens with 24 samples.

Results

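The E2F and RB family is taken here as 10 genes, E2F1 to E2F8, RB1 and RBL1, found by gene symbol among the 19475 genes of the count table and followed in every library. All 10 passed the filter on low counts in each of the 4 cell lines. The series asks what follows when CBX7, a chromodomain subunit of Polycomb repressive complex 1, is lowered. It holds RNA sequencing of 2 lung cancer lines, A549 (adenocarcinoma) and H1299 (non-small-cell carcinoma), and 2 leukaemia lines, K562 (chronic myeloid, erythroid in character) and THP-1 (acute monocytic). The 24 libraries are 3 with the genotype label Control and 3 with the label CBX7 knock-down from every line. The protocol names lentiviral shCBX7 and shCtrl, whereas the treatment field reads siCBX7 for both arms, and no untransduced cells are among the samples. The labels do not say that replicates were separate cultures, so the p-values speak only for the spread among these libraries, and that may be technical.

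E2F proteins are transcription factors that bind DNA, mostly as dimers with a DP protein, and control genes for DNA synthesis and mitosis. The pocket proteins RB1 and RBL1 bind E2F proteins and hold their targets down until cyclin-dependent kinases phosphorylate them. E2F1, E2F2 and E2F3 are known as activators and bind RB1, while E2F4 and E2F5 act mainly as repressors and also bind RBL1. E2F6 needs no pocket protein and sits in a variant Polycomb complex, PRC1.6, and E2F7 and E2F8 are atypical repressors that bind without a DP partner and are themselves E2F targets.

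The targeted gene went against its labels in every line. CBX7 measured 6.61, 6.12 and 5.71 CPM (counts per 1 M of a library's scaled total) in the A549 libraries labelled control and 54.9, 52.8 and 52.9 CPM in those labelled knockdown. It was also higher in the libraries labelled knockdown of H1299 (30.4 ± 0.825 against 385 ± 11.8 CPM, SD, n = 3), of K562 (12.95 ± 0.872 against 37.7 ± 0.312) and of THP-1 (16.8 ± 1.94 against 38.5 ± 4.09). The groups did not overlap in any line, and the log2 fold changes were 3.08, 3.62, 1.51 and 1.20 with adjusted p of 3.18e-12, 2.02e-13, 3.96e-08 and 0.00144. Every direction below is therefore that of the libraries labelled knockdown against those labelled control, and does not say what less CBX7 does. Libraries held between 71.1 M and 132.5 M estimated counts. These totals are not numbers of sequenced fragments, which are not known.

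Marker genes fitted most of the line names. All 10 erythroid markers exceeded 1 CPM in K562 and all 10 monocytic markers did so in THP-1. In A549 8 of 10 epithelial markers exceeded 1 CPM, and in H1299 only 4 did, with a median of at most 0.348 CPM. Markers of fibroblasts summed to 68.2 to 68.7 CPM in A549 controls and 159 to 456 CPM in the A549 libraries labelled knockdown. Erythroid markers in K562 summed to 1414 to 1446 CPM in controls and 2550 to 2660 CPM in libraries labelled knockdown, while the monocytic sum there was 178 to 182 against 121 to 128 CPM. Epithelial markers summed to 12685 to 12911 CPM in A549 controls against 7831 to 8176 CPM. Their median went the other way, at 72.4 to 73.4 CPM in controls against 126 to 127 CPM, so the list did not fall as a whole. In H1299 the epithelial sum was 1491 to 1546 against 726 to 746 CPM and the fibroblast sum 77.3 to 82.2 against 209 to 226 CPM. The epithelial medians in H1299 overlapped, at 0.252 to 0.348 against 0.263 to 0.307 CPM. The part of these marker shifts in the results below was not tested.

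Among members with a promoter window in use, those of 4 hold an E2F word, and these are shown with the start sites that bear on the results. The words searched were TTTCCCGC, TTTGGCGC, TTTCGCGC and TTTGCCGC, on both strands, in windows of 300 bases that begin upstream of a RefSeq gene start and end 50 bases past it (GRCh38.p14). Each sequence is written on the gene's own strand, with the words in capitals. E2F1 (chr20:33686336-33686635, minus strand) holds 2 words, at -33 and -20 from the start site, and E2F2 (chr1:23531184-23531483, minus strand) holds 1 at -42. The upstream start of E2F3 (chr6:20401629-20401928, plus strand) has 1 word at -53, whereas its internal start further downstream (chr6:20403364-20403663) has none. RBL1 (chr20:37095948-37096247, minus strand) has 2 words at -26 and -16, and E2F7 (chr12:77065520-77065819, minus strand), for contrast, has none but holds CCAAT 4 times.
E2F1: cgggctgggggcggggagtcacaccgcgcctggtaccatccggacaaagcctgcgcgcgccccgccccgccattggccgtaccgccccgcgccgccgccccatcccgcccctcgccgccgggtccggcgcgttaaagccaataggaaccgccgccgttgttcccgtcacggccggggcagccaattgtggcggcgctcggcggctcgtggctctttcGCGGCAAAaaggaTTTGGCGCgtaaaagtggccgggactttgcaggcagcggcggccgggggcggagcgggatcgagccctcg
E2F2: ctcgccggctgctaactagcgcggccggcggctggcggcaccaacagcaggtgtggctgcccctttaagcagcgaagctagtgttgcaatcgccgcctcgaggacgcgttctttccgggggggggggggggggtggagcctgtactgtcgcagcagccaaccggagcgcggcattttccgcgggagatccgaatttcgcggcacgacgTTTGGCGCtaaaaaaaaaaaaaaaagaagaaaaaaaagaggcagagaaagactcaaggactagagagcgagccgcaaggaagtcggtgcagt
E2F3 upstream start: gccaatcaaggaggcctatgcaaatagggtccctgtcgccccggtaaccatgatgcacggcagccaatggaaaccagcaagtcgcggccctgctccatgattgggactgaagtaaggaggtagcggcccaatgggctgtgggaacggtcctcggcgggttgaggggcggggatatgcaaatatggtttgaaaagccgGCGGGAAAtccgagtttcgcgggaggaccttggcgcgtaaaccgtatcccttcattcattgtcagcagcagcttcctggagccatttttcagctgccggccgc
E2F3 internal start: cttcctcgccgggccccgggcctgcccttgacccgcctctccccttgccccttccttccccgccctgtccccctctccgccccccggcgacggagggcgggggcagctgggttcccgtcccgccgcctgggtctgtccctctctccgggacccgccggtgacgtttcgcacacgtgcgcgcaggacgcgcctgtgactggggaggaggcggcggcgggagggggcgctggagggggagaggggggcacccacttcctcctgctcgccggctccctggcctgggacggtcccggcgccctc
RBL1: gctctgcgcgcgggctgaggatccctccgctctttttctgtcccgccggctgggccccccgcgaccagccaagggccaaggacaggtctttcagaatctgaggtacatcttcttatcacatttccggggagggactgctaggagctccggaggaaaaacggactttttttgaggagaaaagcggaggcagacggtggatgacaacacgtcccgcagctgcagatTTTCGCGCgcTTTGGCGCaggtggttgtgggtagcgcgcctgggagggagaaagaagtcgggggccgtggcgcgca
E2F7: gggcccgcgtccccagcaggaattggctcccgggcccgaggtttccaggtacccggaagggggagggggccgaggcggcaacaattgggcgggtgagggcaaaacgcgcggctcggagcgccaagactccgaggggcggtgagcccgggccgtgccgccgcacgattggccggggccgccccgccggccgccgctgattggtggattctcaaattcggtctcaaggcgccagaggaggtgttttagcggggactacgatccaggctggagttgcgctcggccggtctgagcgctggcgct

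Among 35116 RefSeq promoter windows, 3.31% held any of these words and 0.145% held at least 2. The windows of E2F4 and E2F6 had none. The mitotic CHR word TTTGAA was found in the upstream E2F3 window only, against 15.2% of all windows, and CCAAT, bound by NF-Y, in those of E2F1, E2F3 and E2F7, against 34.6%. No window was found for E2F8. Entries on chromosome 8, where E2F5 lies, were left out, so nothing is said of its promoter. The RB1 entry lies 172724 bases from the annotated gene start and was set aside. A match describes the letters in the window and is no measure of binding.

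All 10 members differed in level between the 4 lines among the control libraries, where 94.9% of all genes tested did so (edgeR quasi-likelihood F test, Benjamini-Hochberg adjusted p under 0.05). E2F5 varied most. It measured 53.0 ± 1.52 CPM in H1299, 26.2 ± 2.94 in A549, 18.3 ± 0.563 in K562 and 3.39 ± 0.856 in THP-1 (SD, n = 3), and each step in that order passed the test. Levels of E2F3, at 124 ± 4.83 CPM, and E2F4, at 214 ± 11.9 CPM, were highest in K562. RB1 (146 ± 7.18 CPM), RBL1 (124 ± 6.97 CPM), E2F1 (81.5 ± 5.79 CPM), E2F7 (60.7 ± 1.21 CPM) and E2F8 (77.4 ± 3.24 CPM) were highest in THP-1. RBL1 was lowest in H1299, at 18.5 ± 6.43 CPM, where control replicate 2 measured 11.1 CPM and the other two 22.1 and 22.3 CPM.

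Some neighbours in the order did not differ beyond their spread. For E2F3 the levels of H1299 and A549 gave an adjusted p of 0.206, for E2F7 those of A549 and H1299 gave 0.225, and for E2F8 those of H1299 and A549 gave 0.668. E2F6 ran from 32.2 CPM in K562 through 29.97 in A549 and 22.9 in H1299 to 17.5 in THP-1, and no neighbouring pair passed (adjusted p = 0.669, 0.0921 and 0.0966). The order of the other members had every neighbouring step past the threshold. By pair of lines, 6 members differed between H1299 and A549 (75% of all genes), 9 between K562 and A549 (77%), 10 between THP-1 and A549 (77%), 10 between K562 and H1299 (75.7%), 9 between THP-1 and H1299 (78.1%) and 10 between THP-1 and K562 (74.1%).

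**Figure D1:**
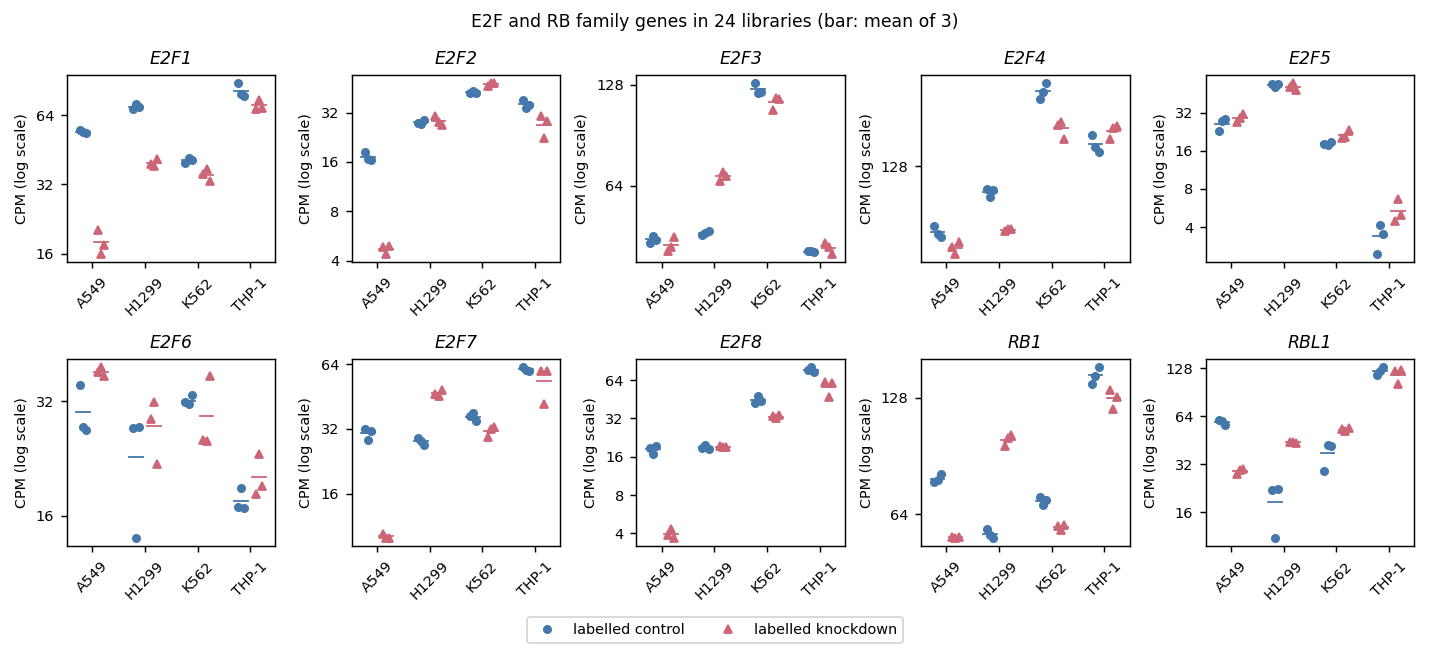
CPM of each of the 10 genes (log axis) in the 24 libraries, by line, with circles for libraries labelled control, triangles for those labelled knockdown and a bar for the mean of 3. E2F1, E2F2, E2F7, E2F8 and RBL1 fall far below their controls in A549, while RB1, RBL1, E2F3 and E2F7 lie above them in H1299.

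In A549, 7 members were lower and 1 higher in the libraries labelled knockdown, against 28.4% and 27.2% of all genes tested. The groups did not overlap for 8 members, against 63.7% of all genes. The largest differences were those of E2F8, E2F2, E2F7, E2F1 and RBL1, by 2.10-fold to 4.75-fold. The median log2 fold change of the 10 members was -0.80, that of all genes 0.01.

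E2F1, the activator best known for driving entry into S phase, measured 54.9, 53.9 and 53.4 CPM in A549 controls and 20.3, 16.0 and 17.4 CPM in the libraries labelled knockdown. All 3 of the latter lay below all controls, with a log2 fold change of -1.63 ± 0.08 (SE) and an adjusted p of 1.90e-08. E2F2, the second activator, measured 18.5, 16.6 and 16.5 against 4.84, 4.42 and 4.93 CPM. Its groups were as far apart, at -1.90 ± 0.09 (adjusted p = 2.62e-09). E2F3, the third activator, was near its control level, at 43.4, 45.3 and 44.3 against 40.9, 42.0 and 45.1 CPM. Those groups overlapped and the test did not pass (-0.09 ± 0.05, adjusted p = 0.142), although it passed without knockdown replicate 3 (-0.14, adjusted p = 0.0471) and with the trend on transcript length removed (-0.14, adjusted p = 0.0328).

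The atypical repressors fell with E2F1 and E2F2 in A549. E2F8 measured 18.8, 16.9 and 19.3 CPM in controls and 3.86, 4.35 and 3.70 CPM in the libraries labelled knockdown, a log2 fold change of -2.25 ± 0.09 (adjusted p = 8.18e-10). E2F7 measured 32.1, 28.5 and 31.4 against 10.4, 9.97 and 9.98 CPM (-1.64 ± 0.07, adjusted p = 7.75e-10). Neither gene had overlapping groups. Of the pocket proteins, RBL1 measured 60.6, 60.2 and 56.6 against 27.6, 29.5 and 29.7 CPM (-1.07 ± 0.05, adjusted p = 3.08e-09). RB1, the retinoblastoma protein itself, measured 77.6, 78.4 and 81.2 against 56.0, 55.8 and 55.9 CPM (-0.54 ± 0.04, adjusted p = 1.33e-07). Both were lower in all 3 libraries labelled knockdown.

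The other repressors moved little in A549. E2F4, which works mainly in resting cells, went from 81.4 ± 3.22 to 73.2 ± 2.83 CPM (-0.19 ± 0.04, adjusted p = 0.00263; limma with no filter gave 0.0526), and E2F5 from 26.2 ± 2.94 to 29.1 ± 2.18 CPM, which did not pass (0.12 ± 0.09, adjusted p = 0.277). E2F6 was the member called higher, at 35.4, 27.5 and 27.0 CPM in controls and 38.2, 39.4 and 37.3 CPM in the libraries labelled knockdown (0.31 ± 0.10, adjusted p = 0.0295). One control stood near the other arm, and the call was lost without control replicate 2 (adjusted p = 0.0861), control replicate 3 (0.0707), knockdown replicate 1 (0.116), knockdown replicate 2 (0.102) or knockdown replicate 3 (0.0661). It was also lost in a model of all 24 libraries (0.207).

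In H1299 the members split, with 4 called higher and 2 called lower, against 33.4% and 35.5% of all genes tested. The groups did not overlap for 6 members, against 74.7% of all genes, so the family's share of calls was close to that of all genes. The median log2 fold change of the members was 0.10, that of all genes -0.00. E2F1 and E2F4 were lower, while RBL1, RB1, E2F7 and E2F3 were higher.

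E2F1 measured 68.1, 71.2 and 69.5 CPM in H1299 controls and 39.1, 38.4 and 41.3 CPM in the libraries labelled knockdown (-0.86 ± 0.04, adjusted p = 4.28e-09). The groups lay well apart, as in A549. E2F3 was higher here, at 45.9, 46.4 and 46.9 against 66.2, 70.3 and 68.4 CPM (0.52 ± 0.04, adjusted p = 1.51e-07). E2F2 gave overlapping groups at 28.0 ± 0.804 and 28.4 ± 1.96 CPM (-0.02 ± 0.06, adjusted p = 0.794). E2F7 was 29.05, 28.1 and 27.0 against 46.3, 45.6 and 48.6 CPM (0.70 ± 0.05, adjusted p = 7.98e-08), above all its controls. E2F8, its close relative, measured 18.9 ± 0.648 and 19.2 ± 0.287 CPM and did not pass (-0.02 ± 0.06, adjusted p = 0.785).

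RB1 measured 58.8, 56.8 and 55.8 CPM in H1299 controls and 95.9, 100.7 and 102.5 CPM in the libraries labelled knockdown (0.76 ± 0.04, adjusted p = 5.93e-09). RBL1 measured 22.1, 11.1 and 22.3 against 44.2, 44.4 and 43.6 CPM (1.21 ± 0.32, adjusted p = 0.0265). Both groups of pocket protein values were separate, but RBL1 varied 2-fold among its controls. Its call was lost without control replicate 1 (adjusted p = 0.0516) and without knockdown replicate 1 (0.0757), 2 (0.0751) or 3 (0.0751), and also with a replicate block (0.0753). E2F4 went from 107 ± 2.95 to 82.8 ± 0.711 CPM (-0.42 ± 0.03, adjusted p = 3.79e-07), whereas E2F5 (53.0 ± 1.52 and 51.0 ± 3.41 CPM, -0.10 ± 0.05, adjusted p = 0.114) and E2F6 (22.9 ± 7.65 and 27.5 ± 5.17 CPM, 0.23 ± 0.34, adjusted p = 0.596) did not pass. E2F5 passed without knockdown replicate 2 (-0.14, adjusted p = 0.0227), and E2F6 was also low in control replicate 2, at 14.0 against 27.2 and 27.4 CPM.

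Fold changes in H1299 followed transcript length, with a Spearman correlation of 0.56 across 14621 genes, against 0.11 in A549, 0.01 in K562 and -0.10 in THP-1. Genes are not independent replicates, so this is a description. E2F4 and E2F5, the shortest members, and RBL1 and E2F7, the longest, lie at opposite ends of it. The 500 genes closest in length to E2F4 had a median log2 fold change of -0.39 and those closest to RBL1 one of 0.43. With the trend removed E2F4 stood at -0.05 (adjusted p = 0.265) and RBL1 at 0.74 (adjusted p = 0.109), so neither passed. E2F5 changed sign and passed at 0.33 (adjusted p = 0.000154), and E2F2 passed at -0.35 (adjusted p = 0.00029). E2F1 (-0.63), RB1 (0.50), E2F7 (0.28) and E2F3 (0.19) kept their direction and passed with adjusted p of 1.61e-07, 5.06e-07, 0.000262 and 0.00146, and the number of members called was again 4 higher and 2 lower.

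**Figure D2:**
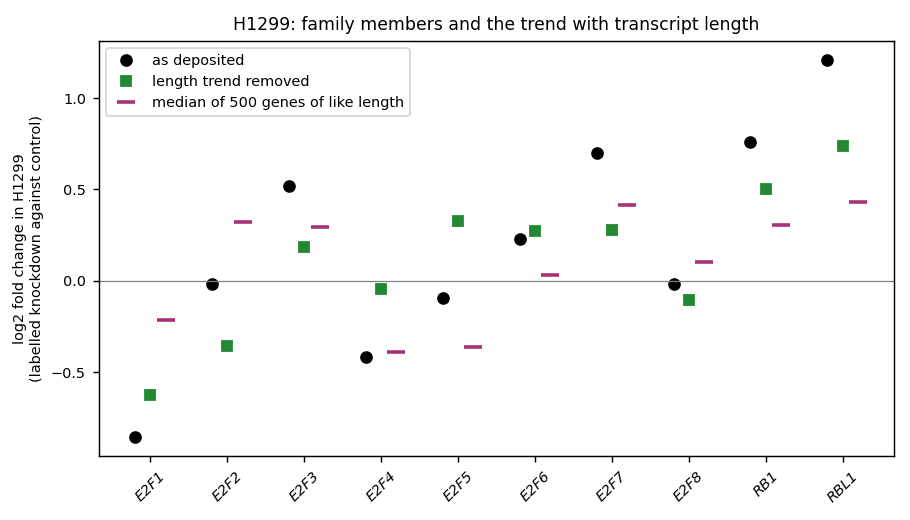
Log2 fold change of each member in H1299 (libraries labelled knockdown against control) as deposited (circles), with the trend on transcript length removed (squares) and as the median of the 500 genes of like length (bars). E2F1 stays lowest and RBL1 highest, while E2F4 moves from -0.42 to -0.05 and E2F5 from -0.10 to 0.33.

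In K562, 6 members were lower and 2 higher in the libraries labelled knockdown, against 27.5% and 28.9% of all genes tested. With DESeq2 size factors or the length trend removed, the split was 6 lower and 1 higher. The groups did not overlap for 9 members, against 64.6% of all genes. The differences were small, from 1.09-fold to 1.38-fold among members called, and the median log2 fold change was -0.20, against 0.01 for all genes.

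E2F8 measured 42.6, 47.8 and 43.9 CPM in K562 controls and 33.2, 32.0 and 33.8 CPM in the libraries labelled knockdown (-0.47 ± 0.06, adjusted p = 9.59e-05). E2F4 measured 202.7, 212 and 226 against 170, 174 and 155 CPM (-0.39 ± 0.06, adjusted p = 0.000208). Every library labelled knockdown lay below every control for both. E2F7 (36.6 ± 1.55 to 31.3 ± 1.76 CPM, -0.25 ± 0.06, adjusted p = 0.00508) and E2F1 (40.6 ± 0.961 to 35.2 ± 1.97 CPM, -0.23 ± 0.06, adjusted p = 0.00613) were lower too. So were RB1 (69.4 ± 1.72 to 59.4 ± 0.887 CPM, -0.25 ± 0.05, adjusted p = 0.000773) and E2F3 (124 ± 4.83 to 114 ± 5.12 CPM, -0.15 ± 0.04, adjusted p = 0.0138). The E2F3 call was lost without knockdown replicate 1 (adjusted p = 0.0603) and in the 3 limma fits (0.124, 0.124 and 0.145), and that of E2F7 in the model of all 24 libraries (0.0678).

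E2F2 was called slightly higher in K562, at 42.3, 43.4 and 42.4 against 46.4, 48.3 and 48.5 CPM (0.13 ± 0.05, adjusted p = 0.0441). Its groups did not overlap, but the call was lost without any one of the 6 libraries (adjusted p from 0.0554 to 0.119). It was also lost with DESeq2 size factors (0.0502), no filter (0.0643), a replicate block (0.0860), the length trend removed (0.0931) or all 24 libraries in the model (0.152). E2F5 measured 18.3 ± 0.563 and 21.3 ± 1.76 CPM (0.20 ± 0.07, adjusted p = 0.0425), a call lost without control replicate 1 (0.103), control replicate 2 (0.121) or knockdown replicate 3 (0.171), with the DESeq2 Wald test (0.0781) and in the 24-library model (0.232). RBL1 measured 28.8, 42.3 and 41.4 CPM in controls and 52.9, 51.4 and 54.2 CPM in the libraries labelled knockdown. These groups were separate, yet the edgeR test did not pass (0.46 ± 0.16, adjusted p = 0.0572). It passed without control replicate 1 (0.30, adjusted p = 0.00161) or control replicate 2 (0.56, adjusted p = 0.0447). With all libraries kept RBL1 passed with the DESeq2 Wald test (0.000866), the replicate block (0.0392), the 24-library model (0.0336) and 3 limma fits (0.0210 to 0.0250). E2F6 overlapped at 32.2 ± 0.921 and 29.2 ± 7.01 CPM (-0.17 ± 0.17, adjusted p = 0.458).

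In THP-1 none of the 10 members passed the edgeR test, where 6.3% of all genes were called higher and 3.93% lower. At an unadjusted p under 0.05 there were 4 members, DESeq2 called 1 and limma on log2(FPKM + 1) called 0. The groups did not overlap for 6 members, against 35.8% of all genes, and the median log2 fold change was -0.13, against 0.01 for all genes. Knockdown replicate 2 stood apart from the other libraries of its group, with the proliferation marker MKI67 at 446 CPM against 1346 and 1315 CPM. Among other proliferation genes, PCNA went the other way, at 158 against 110 and 103 CPM. TOP2A was lower in that library (841 against 953 and 918 CPM). So were FOXM1 (94.9 against 128 and 126 CPM) and MYBL2 (391 against 437 and 440 CPM). Without that library 3 members passed, all lower.

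E2F8 measured 76.7, 81.0 and 74.6 CPM in THP-1 controls and 61.6, 47.2 and 60.8 CPM in the libraries labelled knockdown (-0.45 ± 0.12, adjusted p = 0.0523). All 3 of the latter lay below the controls, and without knockdown replicate 2 the log2 fold change was -0.33 (adjusted p = 0.00598). In the model of all 24 libraries E2F8, E2F2, E2F1, E2F5 and RB1 passed in THP-1 (adjusted p = 0.000547, 0.00187, 0.0366, 0.00355 and 0.00331). That model pools each gene's spread over the 4 lines, so these p-values do not measure the spread within THP-1. E2F2 measured 38.0, 34.1 and 35.5 against 30.4, 22.3 and 28.5 CPM (-0.40 ± 0.13, adjusted p = 0.0963), and E2F1 88.1, 78.6 and 77.6 against 68.3, 74.3 and 68.6 CPM (-0.21 ± 0.09, adjusted p = 0.181). Both had separate groups, and without knockdown replicate 2 both passed, at -0.28 (adjusted p = 0.0334) and -0.24 (adjusted p = 0.0344). E2F5, the least abundant member here, measured 2.47, 4.17 and 3.53 against 4.43, 6.71 and 5.02 CPM (0.67 ± 0.24, adjusted p = 0.122).

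Among the rest in THP-1, RB1 (146 ± 7.18 and 127 ± 7.45 CPM, -0.20 ± 0.09, adjusted p = 0.225) and E2F7 (60.7 ± 1.21 and 53.5 ± 10.3 CPM, -0.18 ± 0.14, adjusted p = 0.483) had separate groups without passing. For E2F7 the values labelled knockdown were 59.6, 41.6 and 59.5 CPM, so 1 library made most of the difference. E2F3 (0.04 ± 0.08, adjusted p = 0.821), E2F4 (0.14 ± 0.09, adjusted p = 0.378), E2F6 (0.21 ± 0.12, adjusted p = 0.322) and RBL1 (-0.08 ± 0.11, adjusted p = 0.685) had groups that overlapped.

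**Figure D3:**
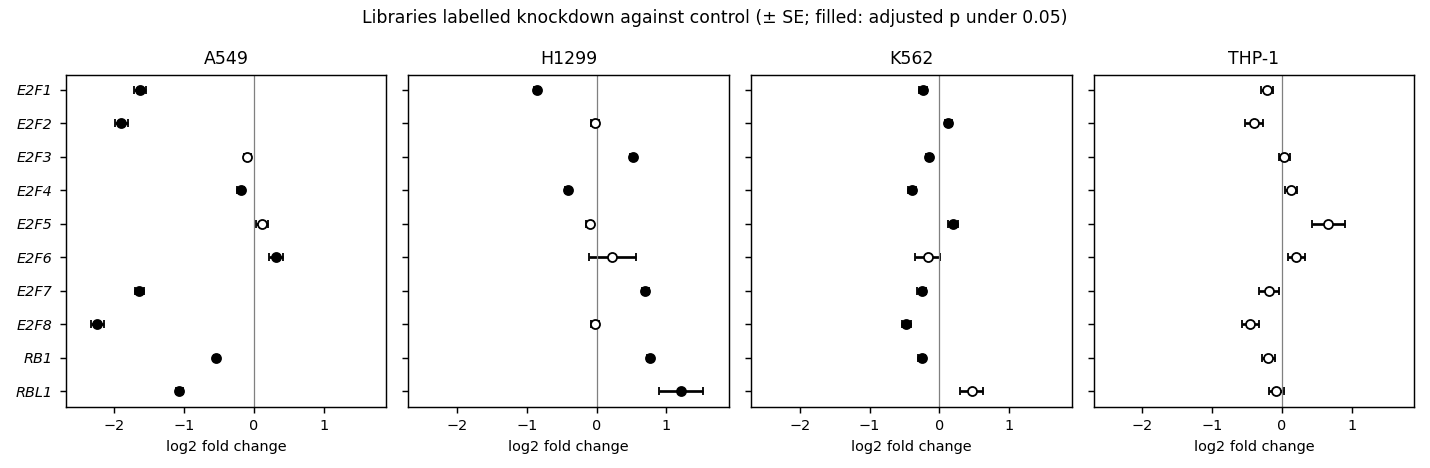
Log2 fold change of each member in the 4 lines, libraries labelled knockdown against control, with standard errors from edgeR; filled points passed an adjusted p of 0.05. E2F8 reaches -2.25 in A549, RBL1 reaches 1.21 in H1299, and no THP-1 point is filled.

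Averaged over the 4 lines in a model of all 24 libraries, E2F8 (-0.77 ± 0.04, adjusted p = 2.79e-11), E2F1 (-0.71 ± 0.04, adjusted p = 6.01e-12), E2F2 (-0.52 ± 0.04, adjusted p = 8.66e-09), E2F7 (-0.32 ± 0.05, adjusted p = 1.52e-05) and E2F4 (-0.19 ± 0.03, adjusted p = 1.27e-05) were lower. E2F5 (0.25 ± 0.07, adjusted p = 0.00791) and E2F3 (0.10 ± 0.02, adjusted p = 0.000754) were higher. These are 5 lower and 2 higher members, against 21.2% and 28.9% of all genes. E2F6 (0.17, adjusted p = 0.181), RB1 (-0.03, adjusted p = 0.318) and RBL1 (0.16, adjusted p = 0.160) did not pass, though RBL1 did with limma on log2(FPKM + 1) (0.17, adjusted p = 0.0400). With the length trend removed E2F3 fell to 0.00 (adjusted p = 1.00) and RB1 passed at -0.11 (adjusted p = 4.82e-05).

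The size of the difference itself depended on the line for 9 of 10 members, where 64.9% of all genes passed the interaction test. Only E2F6 did not pass (adjusted p = 0.432). The pocket proteins RB1 and RBL1 went in opposite directions in A549 and H1299, by 1.30 ± 0.06 (adjusted p = 1.10e-11) and 2.28 ± 0.26 (adjusted p = 6.24e-07) on the log2 scale. For E2F7 the gap between these lung lines was 2.34 ± 0.14 (adjusted p = 1.11e-10) and for E2F8 2.23 ± 0.12 (adjusted p = 5.10e-11). E2F1 was lower in both, and the effect was 0.78 ± 0.10 smaller in size in H1299 (adjusted p = 2.62e-06).

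Counted by pair of lines, the effect differed for 8 members between H1299 and A549 (44.2% of all genes), for 7 between K562 and A549 (34.6%) and for 7 between THP-1 and A549 (29.3%). It differed for 6 between K562 and H1299 (47.8%) and for 9 between THP-1 and H1299 (45.6%). Between the leukaemia lines THP-1 and K562 the count was 2 (31.9%), E2F4 (0.50 ± 0.08, adjusted p = 7.44e-05) and E2F2 (-0.57 ± 0.12, adjusted p = 0.00141). For E2F8 the THP-1 minus K562 difference was -0.01 ± 0.12 and for E2F1 -0.01 ± 0.10, with adjusted p of 1.00 in both.

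Levels of different genes can be compared only per transcript length, as FPKM. On that scale E2F4 took the largest share of the summed FPKM of E2F1 to E2F8 in every group, from 32.5 ± 0.830% in H1299 libraries labelled knockdown to 54.7 ± 1.41% in K562 controls. E2F1 held 19.4 ± 0.159% in A549 controls and 8.26 ± 1.011% in the libraries labelled knockdown. In H1299 it went from 19.0 ± 0.941% to 12.1 ± 0.720%, while E2F7 went from 3.59 ± 0.169% to 6.73 ± 0.374%. The H1299 shares include the trend on transcript length. Its removal took the log2 fold change of E2F7 there from 0.70 to 0.28 and that of E2F1 from -0.86 to -0.63. E2F5 made up 21.0 ± 0.0512% of the sum in H1299 controls but 1.20 ± 0.334% in THP-1 controls, and E2F8 12.8 ± 0.682% in THP-1 controls against 3.51 ± 0.220% in H1299 controls.

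The ratio of summed activator FPKM (E2F1 to E2F3) to that of E2F4 and E2F5 was 0.612, 0.602 and 0.597 in A549 controls and 0.330, 0.303 and 0.304 in the libraries labelled knockdown. In THP-1 it was 0.622, 0.608 and 0.630 against 0.521, 0.483 and 0.467. Both lines had lower ratios in all 3 libraries labelled knockdown. In K562 the order was the other way, with 0.451, 0.426 and 0.397 against 0.469, 0.488 and 0.512, and in H1299 the groups overlapped at 0.505 ± 0.021 and 0.499 ± 0.016. These ratios combine genes already tested one by one and were not tested again. The H1299 ratios include the trend on transcript length, and E2F4 and E2F5 are the shortest members. With the trend removed, the H1299 log2 fold changes of E2F1, E2F2 and E2F3 were -0.63, -0.35 and 0.19. Those of E2F4 and E2F5 were -0.05 and 0.33. The ratio was not computed under that setting.

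**Figure D4:**
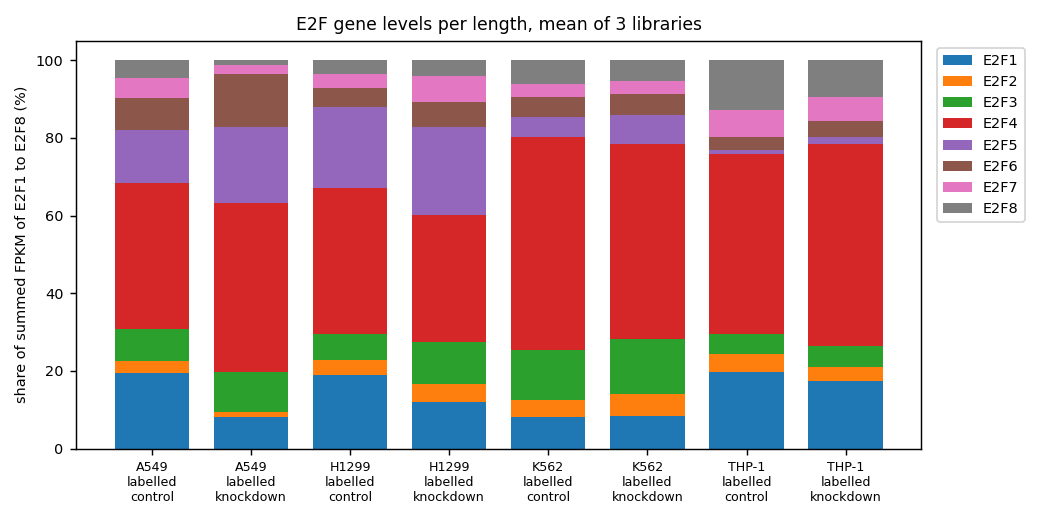
Share of each E2F gene in the summed FPKM of E2F1 to E2F8 (%), mean of 3 libraries per group, stacked to 100%. E2F4 is the largest block in all 8 groups, the E2F1 block shrinks from 19.4% to 8.26% in A549, and the E2F5 block is thin in THP-1.

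E2F1, E2F2, E2F4, E2F7 and RB1 are represented by 1 transcript each in the transcript table, so isoforms could be compared for E2F3, E2F5, E2F6, E2F8 and RBL1. E2F3 is known to be made from an upstream and an internal promoter, both printed above. Its transcripts are NM_001949 and NM_001243076. In H1299 NM_001243076 measured 4.998, 4.69 and 4.65 TPM (transcripts per 1 M, a level per length) in controls and 17.2, 19.5 and 10.4 TPM in the libraries labelled knockdown, while NM_001949 measured 14.1, 14.2 and 14.7 against 20.1, 20.04 and 27.2 TPM. Both transcripts were above their controls in every library labelled knockdown. TPM ran higher against CPM in these libraries, however. E2F2, with 1 transcript, went from 10.8 to 14.6 TPM in H1299 while its CPM was 28.0 and 28.4. E2F4 went from 102 to 105 TPM while its CPM fell from 107 to 82.8. How much of each E2F3 rise lies in this scale was not tested. The share of NM_001949 in the gene's TPM was 73.9%, 75.2% and 76.0% against 54.0%, 50.6% and 72.4%, so the groups did not overlap (exact two-sided permutation test, p = 0.1, the smallest that 3 against 3 libraries allow).

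E2F5 showed such a separation in A549, where NM_001951 held 50.1 ± 0.243% and 59.8 ± 3.00% of its TPM (exact permutation p = 0.1, n = 3). Separate groups were thus found for 1 of 5 members in each of A549 and H1299, against 16.3% and 19.5% of all genes with several transcripts, and in K562 (18.1%) and THP-1 (11.2%) 0 of 5. With 3 libraries a group no share could reach an exact permutation p under 0.05. Several shares swung widely within a group. RBL1 NM_002895 held 91.2%, 93.0% and 50.0% in A549 controls, and E2F6 NM_198256 held 66.4%, 35.0% and 35.2%. The low gene counts of RBL1 in H1299 control replicate 2 went with 2.32 TPM for that transcript, against 7.51 and 7.53 TPM in the other controls.

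**Figure D5:**
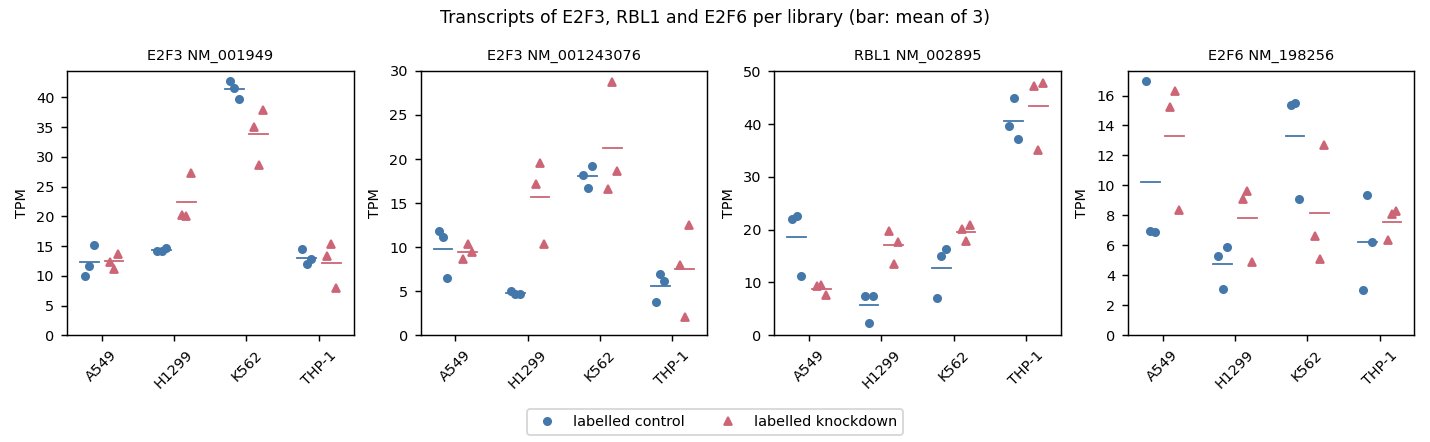
TPM of 4 transcripts of E2F3, RBL1 and E2F6 in the 24 libraries by line, with circles for libraries labelled control, triangles for those labelled knockdown and a bar for the mean of 3. In H1299 both E2F3 transcripts lie above their controls, by more for NM_001243076 (4.78 to 15.7 TPM) than for NM_001949 (14.3 to 22.5 TPM). TPM ran higher against CPM in the H1299 libraries labelled knockdown, as for E2F2 (10.8 to 14.6 TPM, 28.0 to 28.4 CPM).

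Some member counts can include reads of other genes, since nothing says whether strand was used in counting. E2F5 overlaps C8orf59 and RB1 overlaps LPAR6 and RCBTB2 on opposite strands. E2F3, E2F4 and E2F6 have processed pseudogenes that are not rows of the table, so their counts are uncertain to that extent.

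The targets of the family were read from lists of other pathway genes. The counts called stand beside the shares of all genes tested, 27.2% higher and 28.4% lower in A549, 33.4% and 35.5% in H1299, 28.9% and 27.5% in K562 and 6.3% and 3.93% in THP-1. The genes named as highest or lowest are those among called genes whose higher group reached 5 CPM. For H1299 the fold changes of all named list genes are as deposited, with the trend on transcript length left in. How far that trend sets which genes are highest or lowest there was not tested. Of 40 G1/S targets of E2F, which serve DNA replication, 38 were lower and 0 higher in A549 (median -1.35 on the log2 scale). RRM2, a ribonucleotide reductase subunit, was lowest, at 191 ± 4.05 against 31.5 ± 1.32 CPM (-2.64, adjusted p = 5.89e-13). In H1299 31 were lower and 3 higher (median -0.57). The licensing factor CDT1 was lowest there (218 ± 3.598 to 94.6 ± 3.69 CPM, -1.25) and CASP8AP2, with a role in histone gene expression, was highest (35.9 ± 1.15 to 76.9 ± 4.26 CPM, 1.06). In K562 16 were lower and 5 higher (median -0.08), led by UHRF1, which maintains DNA methylation (105 ± 3.77 to 56.7 ± 0.581 CPM, -0.92), and CDT1, higher in this line (149 ± 8.60 to 228 ± 16.1 CPM, 0.58). The 52.5% of targets called in K562 in either direction was close to the share of all genes. In THP-1 6 were lower and 0 higher (median -0.19), with the DNA ligase LIG1 lowest (108 ± 9.99 to 73.3 ± 7.15 CPM, -0.55, adjusted p = 0.0194).

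The THP-1 count turned on single libraries. Without knockdown replicate 2 it was 15, and without control replicate 1, 2 or 3 it was 0 each time. It was 1 without knockdown replicate 1 and 3 without knockdown replicate 3. The median of all genes was 0.01 in A549, K562 and THP-1 and -0.00 in H1299.

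Of 30 G2/M genes bound by DREAM, the repressor complex of E2F4, DP and pocket proteins, all 30 were lower in A549 (median -1.94). The mitotic kinesin KIF20A went from 121 ± 1.94 to 24.6 ± 0.954 CPM (-2.34, adjusted p = 8.67e-13) and MKI67 from 1124 ± 17.8 to 251.2 ± 4.85 CPM (-2.20). In H1299 24 were lower and 3 higher (median -0.44). The ubiquitin-conjugating enzyme UBE2C was lowest (245 ± 4.79 to 101 ± 6.34 CPM, -1.32) and the kinetochore motor CENPE highest (74.3 ± 7.52 to 126.5 ± 1.12 CPM, 0.73), and with the length trend removed the split was 24 lower and 0 higher. MKI67 in H1299 was higher as deposited (443 ± 16.8 to 682 ± 20.4 CPM, 0.58).

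K562 differed in sign for the G2/M list, with 15 higher and 4 lower (median 0.12). The phosphatase CDC25C was highest (27.4 ± 1.63 to 46.2 ± 2.95 CPM, 0.72) and CDC20, an activator of the anaphase-promoting complex, lowest (183 ± 7.08 to 159 ± 4.04 CPM, -0.23). In THP-1 none passed edgeR (median 0.18), with 12 at an unadjusted p under 0.05. DESeq2 called 7 and limma 6, all higher, and without knockdown replicate 2 edgeR called 13, all higher.

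Target promoters differed in their words. Of 36 G1/S list genes with a RefSeq window, 22 (61.1%) held an E2F word, against 3 of 25 G2/M list genes (12.0%) and 3.99% of all genes. The CHR word TTTGAA was found in 16 of 25 G2/M list genes (64.0%), in 2 of 36 G1/S list genes (5.56%) and in 18.2% of all genes. CCAAT was in 69.4% and 88.0% of the lists against 39.7% of all genes. These lists were drawn up from knowledge of such sites, so the shares describe the lists.

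Partners of the family formed the next list, 12 DP and DREAM genes. In A549 8 were lower and 0 higher (median -0.55), MYBL2 most of all, a MYB protein that takes over the complex before mitosis (134 ± 4.34 to 35.1 ± 0.920 CPM, -1.97, adjusted p = 1.43e-12). FOXM1, its mitotic partner, went from 187 ± 9.19 to 55.7 ± 3.18 CPM (-1.78) and the DP subunit TFDP1 from 104 ± 2.07 to 74.2 ± 3.75 CPM (-0.52). In H1299 5 were higher and 5 lower (median 0.11), or 3 higher and 6 lower with the length trend removed. The third pocket protein gene RBL2 was highest (59.5 ± 2.84 to 110 ± 5.62 CPM, 0.84) and LIN37, a DREAM core subunit, lowest (39.4 ± 0.886 to 18.3 ± 0.549 CPM, -1.15).

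In K562 3 partners were lower and 1 higher (median -0.03), with LIN52 lowest (10.9 ± 0.565 to 8.43 ± 0.743 CPM, -0.40) and LIN9, another DREAM core subunit, highest (37.7 ± 0.844 to 45.4 ± 1.45 CPM, 0.24). The 33.3% of partners called in K562 was below the share of all genes. In THP-1 the 1 partner called was RBL2, lower (152 ± 2.01 to 121 ± 6.24 CPM, -0.32, adjusted p = 0.0461). That count was 0 without control replicate 1, 2 or 3, or without knockdown replicate 1 or 3, and 2 without knockdown replicate 2. The other DP gene TFDP2 passed in H1299 only, higher (62.8 ± 6.52 to 76.8 ± 0.891 CPM, 0.25, adjusted p = 0.0111).

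Kinases, cyclins and inhibitors that act on the pocket proteins made a list of 17. CDKN1A, an inhibitor of cyclin-dependent kinases, was higher in all 4 lines. In A549 it measured 131, 122 and 118 CPM in controls and 269, 277 and 276 CPM in the libraries labelled knockdown (1.11 ± 0.04, adjusted p = 1.31e-10), and in THP-1 36.8, 32.2 and 32.6 against 77.0, 89.4 and 85.5 CPM (1.31 ± 0.10, adjusted p = 0.000332). The groups were separate in both. In H1299 the log2 fold change was 0.27 (adjusted p = 6.56e-05) and in K562 0.53 (adjusted p = 6.97e-05). CCNE1, a cyclin that activates CDK2 and is itself an E2F target, was lower in A549 (27.9 ± 0.217 to 16.4 ± 0.690 CPM, -0.80) and H1299 (19.7 ± 0.978 to 10.7 ± 0.913 CPM, -0.92), and did not pass in K562 (-0.02, adjusted p = 0.802) or THP-1 (-0.24, adjusted p = 0.150).

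CCND1, the cyclin of CDK4 and CDK6, was higher in A549 (329 ± 3.61 to 408 ± 11.7 CPM, 0.27), H1299 (244 ± 1.19 to 300.2 ± 3.52 CPM, 0.25) and THP-1 (4.72 ± 0.357 to 10.4 ± 0.997 CPM, 1.14), and did not pass in K562 (0.12, adjusted p = 0.188). CDKN2A, which codes for an inhibitor of CDK4 and CDK6 and is a known Polycomb target, did not exceed 0.576 CPM in any library of A549, K562 or THP-1 and was not tested there. Why it was near 0 in those lines, in both arms, was not tested. In H1299 it measured 283, 218 and 290 against 116, 124 and 130 CPM (-1.14 ± 0.14, adjusted p = 0.00162). Of the list, 4 were higher and 8 lower among 15 tested in A549 (median -0.35), with CDKN2C lowest (37.9 ± 1.09 to 12.4 ± 0.705 CPM, -1.65). In H1299 5 were higher and 7 lower of 17 (median -0.18), or 7 higher and 5 lower with the length trend removed, with CCND2 highest (1.32 ± 0.049 to 5.88 ± 0.838 CPM, 2.12). The share of the list called was 70.6% in H1299 and 53.3% in K562, both close to that of all genes. In K562 2 were higher and 6 lower of 15 (median -0.04), CCND2 highest (78.3 ± 4.75 to 124 ± 2.66 CPM, 0.64) and CCNE2 lowest (28.2 ± 0.398 to 20.2 ± 1.19 CPM, -0.51). In THP-1 2 were higher and 0 lower of 15 (median 0.06), CDKN1A and CCND1; with the length trend removed 3 were higher and 1 lower, and without knockdown replicate 2 the count was 3 higher and 2 lower.

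Among 12 subunits of PRC1.6, the complex of E2F6, 2 were higher and 7 lower in A549 (median -0.22), 3 and 6 in H1299 (-0.17), 2 and 6 in K562 (-0.14) and 0 and 0 in THP-1 (0.07). The 9 subunits called in H1299 came close to the share of all genes. In THP-1 0 passed an unadjusted p under 0.05 too, and DESeq2 and limma each called 0. MGA, the DNA-binding scaffold of the complex, was the highest in A549 (88.6 ± 1.80 to 103 ± 3.86 CPM, 0.18) and in H1299 (57.3 ± 0.739 to 158 ± 8.77 CPM, 1.42). WDR5 was the lowest in both (-0.62 and -0.57), while in K562 PCGF6, the ring finger subunit that names the complex, was highest (16.8 ± 1.43 to 26.0 ± 0.637 CPM, 0.60) and HDAC1 lowest (-0.42).

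Germline genes that E2F6 is known to silence stayed low or absent in most lines, and 4 of the 8 were tested in each line. None was called in A549 (edgeR; 0 at an unadjusted p under 0.05, 0 by DESeq2 and 1 by limma) or in THP-1 (1 at an unadjusted p under 0.05, and 0 by both other tools). In K562 TEX11, a meiotic gene, measured 0.0425, 0.0466 and 0 CPM in controls and 0.680, 0.598 and 0.724 CPM in the libraries labelled knockdown, and HSF2BP, a recombination factor, 0.577 ± 0.232 and 2.12 ± 0.237 CPM. Both were called higher (adjusted p = 0.00073 and 0.000561), at levels near the floor of detection. STAG3, a meiotic cohesin subunit, was lower in K562 (10.2 ± 0.900 to 5.22 ± 0.610 CPM, -0.997) and in H1299 (174 ± 4.43 to 139 ± 4.10 CPM, -0.36), where SMC1B, another such subunit, was higher (6.18 ± 1.24 to 9.97 ± 1.10 CPM, 0.65).

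Apoptosis genes known as E2F1 targets, 8 in all, gave 1 higher and 4 lower in A549 (median -0.14), 6 and 2 in H1299 (0.28), 2 and 2 in K562 (0.05) and 3 and 1 in THP-1 (0.11). The 62.5% called in A549 and 50.0% in K562 were close to the shares of all genes. TP73, induced by E2F1, was lower in each line, at 1.25 ± 0.181 against 0.585 ± 0.228 CPM in A549 (-1.13, adjusted p = 0.0150), 14.9 ± 0.790 against 12.2 ± 0.766 in H1299 (-0.33, adjusted p = 0.00177), 19.6 ± 0.405 against 15.4 ± 0.319 in K562 (-0.37, adjusted p = 0.000461) and 41.6 ± 3.93 against 27.8 ± 4.001 in THP-1 (-0.58, adjusted p = 0.0311). The A549 levels of TP73 were near the floor of detection, at 26 to 162 estimated counts a library. APAF1, of the apoptosome, was higher in H1299 (26.6 ± 1.91 to 47.2 ± 1.36 CPM, 0.79) and did not pass elsewhere (A549 0.07, K562 -0.12, THP-1 -0.21). PMAIP1, a BH3-only protein, was lower in A549 (-0.70) and, among called genes that reached 5 CPM, highest in K562 (0.43) and THP-1 (0.96, adjusted p = 0.0122). The THP-1 count was 0 without control replicate 1 or 2, 1 without control replicate 3 and 2 without knockdown replicate 1 or 3.

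The genes closest to each member in pattern were found by the root mean square difference of centred log2 CPM over all 24 libraries, among 16346 genes. E2F1 was nearest to PCLAF (0.26), a PCNA-binding protein, CENPK (0.28) and PRIM2 (0.29), a primase subunit. E2F2 was nearest to cyclin gene CCNA2 (0.25), CHAF1A (0.29) and CDCA8 (0.30). E2F7 was closest to ATAD2 (0.24), BUB1B (0.25) and KIF20B (0.26), and E2F8 to KIF15 (0.34), PLK4 (0.36) and MCM3 (0.37). RB1 was nearest to NSF (0.14), WAPL (0.15) and SCAF8 (0.16), and RBL1 to TUBGCP3 (0.29), ZNF678 (0.33) and DCLRE1C (0.34).

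For the other members the nearest genes were of mixed kinds, GOLGA2 (0.16), MRS2 (0.18) and KLHL18 (0.20) for E2F3, and ATP6V0D1 (0.14), UBE2N (0.16) and DNAJC11 (0.17) for E2F4. E2F5 was nearest to PTK2 (0.29), PACSIN3 (0.34) and SOCS3 (0.36), and E2F6 to PUS7 (0.22), GALC (0.25) and FASTKD5 (0.25). The standard deviation of each member's own log2 values, from 0.42 for E2F6 to 1.38 for E2F5, sets the scale of these distances. The distances rest mostly on differences between lines, and the 24 points share 4 lines.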

How the data were processed

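Libraries were grouped by the genotype label. The authors deposited gene-level estimated counts and FPKM and transcript-level TPM. Per the submitters' processing notes, HISAT2, StringTie and hg19 were used, and versions and strand settings are not given in the sources used here. Low estimated counts heap near multiples of 4, so totals are not fragment numbers. Replicates of a group differed beyond sampling noise in all 24 pairs (chi-square per degree of freedom 8.28 to 69.6 on counts divided by 4).

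Estimated counts were rounded and tested within each line with edgeR 4.0.16 in R 4.3.3 (TMM, filterByExpr, robust quasi-likelihood F test, Benjamini-Hochberg adjustment over all genes tested, called at an adjusted p under 0.05). Averages, interactions and control levels came from 1 model of 24 libraries with 8 group means. CPM values use TMM scales of all 24 libraries, whose arms differ from the within-line scale by at most 0.04 log2. Alternatives were DESeq2 1.42.0, limma 3.58.1 on log2(FPKM + 1) or log2(FPKM + 0.1), other filters, a replicate block, counts divided by 4, an offset removing a spline trend (4 degrees of freedom) on transcript length, and leaving out each library. The scripts were tested on simulated data.

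Named genes were all members, CBX7, the highest and lowest called gene of each of 7 pathway lists per line where the higher group reached 5 CPM, and 12 genes fixed by name. TEX11 and HSF2BP were picked once their values had been seen. The members and lists were chosen with earlier results of these data known. Same-numbered replicates did not deviate together, with correlations from -0.04 to 0.04, so the numbers were not used as pairs.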

Additional observations from a re-analysis of the deposited data

Results flagged for a closer look

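The difference between libraries labelled knockdown and control varied from line to line for 9 of the 10 members, by the interaction test of a 24-library edgeR model with adjusted p-values over all genes. The adjusted p was 1.80e-11 for RB1, which was lower in A549 (-0.54 on the log2 scale) and higher in H1299 (0.76), with all 3 libraries on the same side in each line. It was 9.52e-11 for E2F8, whose log2 fold change ran from -2.25 in A549 to -0.02 in H1299, and 2.83e-10 for E2F2, from -1.90 in A549 to 0.13 in K562. E2F7 gave 4.75e-10, with -1.64 in A549 and 0.70 in H1299, and E2F1 gave 1.19e-09, with -1.63 in A549 and -0.21 in THP-1.

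For E2F3 the adjusted p was 8.52e-08, and H1299 stood out with 0.52 against -0.15 to 0.04 in the other lines. RBL1 gave 2.32e-06, with -1.07 in A549 and 1.21 in H1299, where 1 control library was low. E2F4 gave 3.37e-05, with -0.42 in H1299 and 0.14 in THP-1. The H1299 values in this section include the trend on transcript length. With it removed they were -0.05 for E2F4, 0.19 for E2F3, 0.74 for RBL1, 0.28 for E2F7, 0.50 for RB1 and -0.10 for E2F8. Under that setting 8 members passed the interaction test. E2F5 gave 0.0349, and its adjusted p ran from 0.0506 to 0.256 under the 10 alternatives in which it did not pass. With 3 libraries per group no single library could be tested as an outlier.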

How the results depend on the processing

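The counts of members called in A549, H1299 and K562 stayed within 1.5 times of those reported under every alternative tried, and most changes fell in THP-1. There the member count was 1 with DESeq2 size factors, the DESeq2 Wald test, a filter of 1 CPM in 3 libraries, no filter or counts divided by 4, then 2 with the length trend removed and 5 in a model of all 24 libraries. In THP-1 the latter 2 settings called 2479 and 3758 genes in all. Leaving out 1 library gave 0 to 3 members and 560 to 3324 genes. In that line the DP and DREAM partners numbered 0 with no filter, with the replicate block and in the 3 limma fits, and 2 in the 24-library model (0 to 2 without 1 library). The kinase control genes numbered 4 with DESeq2, limma without a filter or the length trend removed, and 5 in the 24-library model (2 to 5 without 1 library). The G1/S targets numbered 10 with DESeq2, 12 with the length trend removed, 20 in the 24-library model and 3 with the replicate block (0 to 15 without 1 library). The G2/M targets numbered 7 with DESeq2, 1 with the 1 CPM filter or counts divided by 4, 16 in the 24-library model, 6, 5 and 3 in the limma fits (log2(FPKM + 1), log2(FPKM + 0.1), no filter) and 10 with the length trend removed (0 to 13 without 1 library). The PRC1.6 subunits numbered 3 in the 24-library model, and the apoptosis targets 0 to 4 without 1 library. In A549 the apoptosis targets numbered 3 in the 24-library model and both filtered limma fits (4 to 6 without 1 library), and germline genes 1 in all 3 limma fits. In H1299 germline genes numbered 1 in the 24-library model. In K562 the 24-library model called 2 DP and DREAM partners (3 to 5 without 1 library) and 5 PRC1.6 subunits, the limma fits also called 5 of the latter, and the filtered limma fits called 1 germline gene. The number of members with separate transcript shares without 1 library was 1 to 3 in A549, 1 to 4 in H1299 and 0 to 2 in both K562 and THP-1. E2F5 in H1299 reversed to 0.33 with the length trend removed, as that setting subtracts the trend of short genes. The cause of the other changes was not tested. With the replicate number as a block, the call counts were A549 8, H1299 5, K562 8 and THP-1 0 members, where RBL1 in H1299 was lost (adjusted p = 0.0753) while in K562 RBL1 passed (adjusted p = 0.0392) and E2F2 was lost (adjusted p = 0.0860). The numbers do not pair the samples. Estimated counts of members went down to 188 for E2F5 in THP-1 (2.47 to 6.71 CPM), 269 for E2F8 in A549 and 337 for E2F2 in A549. Whether depth limited any member was not tested.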
